A study of Homo sapiens with 12 samples.

Results

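The genes described here are 10 inducible brakes on MAP kinase signalling: the dual-specificity phosphatases DUSP1, DUSP4, DUSP5, DUSP6, DUSP8, DUSP10 and DUSP16, and the Sprouty and SPRED genes SPRY2, SPRY4 and SPRED1. They were taken by symbol from a table of 58735 genes, and each symbol matched 1 row. RNA was measured in 12 libraries of HepaRG, an established human hepatic cell line labelled wild type, in a series whose title concerns liver fibrosis. Control cells were untreated. PA cells had 4 h of palmitate, a saturated fatty acid, deuterium-labelled and at 400 µM. PA+OA cells had that palmitate plus 200 µM oleate (monounsaturated) for 4 h, so their total fatty acid was 600 µM. PA+BMS cells were given 50 µM BMS-309403, which blocks the lipid chaperone FABP4, over 24 h and 400 µM palmitate for 4 h. Each group had 3 libraries, and no group received oleate or BMS-309403 without palmitate. The effect of either agent is therefore measured only on top of palmitate.

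MAP kinases (ERK, JNK and p38) are switched on by phosphorylation of a threonine and a tyrosine, and the DUSP proteins studied here remove both phosphates. Many of their genes are themselves induced by MAP kinase signalling, so the pathway writes its own inhibitors. Sprouty and SPRED proteins act further up, between receptor tyrosine kinases, RAS and RAF, and are known as feedback inhibitors of the ERK branch. In liver cells MAP kinase signalling is known to respond to growth factors, cytokines and cellular stress, including lipid overload.

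The labelled cell type was checked against marker genes first. All 7 hepatocyte markers were under 1 FPKM (fragments per kilobase of gene, scaled to sequencing depth) in all 12 libraries, and ALB and FABP1 had no read in any. Of 4 bile duct markers, KRT7 lay between 139 and 917 FPKM, while the other 3 stayed under 1 FPKM in all libraries. Of 4 stellate or fibroblast markers, the collagen gene COL1A1 lay between 9.63 and 12.5 FPKM and PDGFRB between 1.46 and 3.76. The others, DCN and PDGFRA, stayed under 1 FPKM in all libraries. The libraries held 16059128 to 19971190 reads each. Their first principal component took 54.4% of the variance, and a gene's loading on it rose with transcript GC content (Spearman 0.68 across genes, given as a description, since genes are not independent). All PA and PA+OA libraries were positive on this component (10.6 to 54.6), and all control and PA+BMS libraries were negative (-51.5 to -5.70). It therefore also separated PA from control and PA+BMS from PA. PA+OA replicate 1 (54.6) and PA+BMS replicate 3 (-51.5) stood apart from the rest of their groups on it. Control replicate 1 (-5.70) lay apart from the other controls (-27.1 and -24.6). Labels do not say that replicates were separate cultures, so p-values measure the spread between these libraries, which may be technical.

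The promoters of 2 phosphatase genes that rose with palmitate, DUSP1 and DUSP8, and of 1 that did not, DUSP16, are shown because they differ in a cyclic AMP response element, TGACGTCA, the site bound by factors of the CREB and ATF family. The sequences are the 250 bases before the start of each gene in RefSeq (GRCh38.p14), all on the minus strand and written 5′ to 3′, with TGACGTCA in capitals. None overlaps an annotated exon. DUSP1 is from chr5:172771196-172771445, DUSP8 from chr11:1572272-1572521 and DUSP16 from chr12:12562864-12563113.
DUSP1: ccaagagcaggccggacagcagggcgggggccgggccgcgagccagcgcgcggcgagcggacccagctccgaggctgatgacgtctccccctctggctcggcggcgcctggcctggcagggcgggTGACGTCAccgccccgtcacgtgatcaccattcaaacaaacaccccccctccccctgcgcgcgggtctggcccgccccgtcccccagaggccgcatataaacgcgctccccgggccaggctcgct
DUSP8: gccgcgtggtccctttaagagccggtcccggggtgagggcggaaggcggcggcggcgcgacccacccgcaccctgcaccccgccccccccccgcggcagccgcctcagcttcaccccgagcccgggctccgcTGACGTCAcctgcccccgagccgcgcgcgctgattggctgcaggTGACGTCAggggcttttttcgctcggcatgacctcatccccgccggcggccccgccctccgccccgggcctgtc
DUSP16: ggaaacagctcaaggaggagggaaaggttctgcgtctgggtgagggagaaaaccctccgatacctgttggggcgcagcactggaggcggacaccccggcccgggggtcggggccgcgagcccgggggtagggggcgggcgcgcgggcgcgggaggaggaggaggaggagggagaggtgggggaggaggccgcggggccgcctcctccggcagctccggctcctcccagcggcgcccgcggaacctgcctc

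TGACGTCA, which reads the same on both strands, begins 125 bases before the DUSP1 start and 118 and 74 bases before the DUSP8 start. These are RefSeq starts, and those of DUSP8 and DUSP16 lie upstream of the gene coordinates given below. Of the members, 8 had a RefSeq promoter entry, and DUSP1 and DUSP8 were the 2 of them with this element in the window of 250 bases before to 50 after the start. SPRY2 and SPRY4 also rose with palmitate, and their windows lack the element. DUSP4 and DUSP5, which rose too, had no entry. The element occurs in 1.85% of 35116 RefSeq promoter windows of the same length. The shorter core TGACG, which is part of TGACGTCA and was searched on both strands, was in the windows of DUSP1, DUSP8, DUSP10, SPRY2 and SPRY4, and in 24.6% of all windows. TGANTCA (AP-1; in 7.71% of windows), CCGGAAGT (ETS; 4.14%) and the CArG box of serum response factor (1.29%) were in no member's window. These matches describe letters and not binding, which was not measured.

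**Figure D1:**
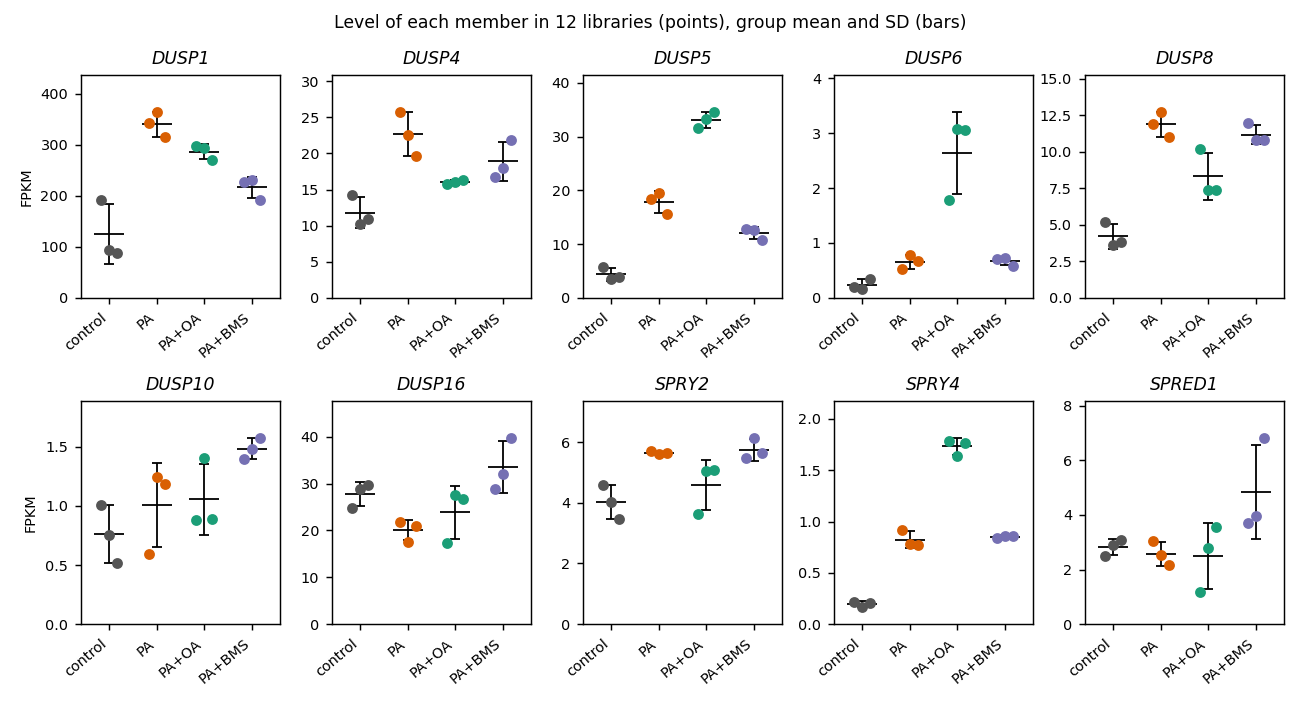
FPKM of the 10 genes in each library, by group, 1 panel per gene with its own linear axis from 0; each point is 1 library, and the line and whiskers are the mean and SD of 3. DUSP1 was the most abundant in every library, and DUSP6 and SPRY4 stayed under 1 FPKM in all control, PA and PA+BMS libraries.

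Levels among the 10 genes ranged widely when compared per length, as FPKM. DUSP1, the immediate early nuclear phosphatase that acts on p38 and JNK and also on ERK, made up 64.3% to 83.0% of the summed FPKM of the 7 phosphatases. That sum was 138 to 244 FPKM in control, 384 to 438 in PA, 358 to 382 in PA+OA and 278 to 306 in PA+BMS. DUSP16 and DUSP4 followed DUSP1 in control, with means of 27.8 and 11.8 FPKM. DUSP6 and SPRY4 were low, at 0.240 and 0.198 FPKM in control, and DUSP10 was at 0.759. All 10 reached 1 FPKM in 3 or more libraries, the filter for testing. DUSP6 and SPRY4 did so only through the PA+OA libraries, so they had to be high there, and counts are also given over the other 8 genes.

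Palmitate for 4 h raised 6 of the 10 genes, and 0 fell. The 3 phosphatases of the nucleus, DUSP1, DUSP4 and DUSP5, rose together with DUSP8, SPRY2 and SPRY4. DUSP6, DUSP10, DUSP16 and SPRED1 did not pass the test. Over the 8 genes other than DUSP6 and SPRY4, 5 rose and 0 fell. Among all 11856 genes tested by limma, 27.6% were called at an adjusted p of 0.05, 12.8% as higher and 14.8% as lower. The PA and control libraries did not overlap in 60.6% of all these genes, 31.3% higher and 29.3% lower. Of the 10 members 7 were higher and 1 lower without overlap. The median log2 change was 0.51 over the 10 genes, 0.65 over the 8, and 0.028 over all genes. All log2 changes are differences of log2(FPKM + 1), so those of low genes such as DUSP6 and SPRY4 are smaller than the ratio of FPKM would give. At an unadjusted p under 0.05, 7 rose and 1 fell, and by voom 5 rose and 1 fell.

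DUSP1 (ENSG00000120129, chromosome 5, 172768090 to 172771195, on GRCh38 as are all coordinates below) read 192, 93.3 and 88.5 FPKM in control replicates 1, 2 and 3, and 343, 364 and 315 FPKM in the PA replicates. All PA libraries were above all controls, and control replicate 1 was the highest control. The mean rose from 125 ± 58.6 to 341 ± 24.4 FPKM (SD, n = 3), a log2 change of 1.53 (SE 0.24, limma adjusted p = 0.00219). Without control replicate 1 the change was 1.89. DUSP4 (ENSG00000120875, chromosome 8, 29333064 to 29350668), a nuclear phosphatase of ERK, JNK and p38, read 14.3, 10.2 and 10.9 FPKM in control and 25.8, 22.6 and 19.7 in PA. It rose 1.92 times in mean FPKM (log2 change 0.89, SE 0.14, limma adjusted p = 0.00267), and the groups did not overlap.

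DUSP5 (ENSG00000138166, chromosome 10, 110497838 to 110511544), a nuclear phosphatase specific for ERK, read 5.78, 3.48 and 3.90 FPKM in control and 18.5, 19.5 and 15.6 in PA. Its log2 change, 1.82 (SE 0.15, limma adjusted p = 5.05e-05), was the largest of the 10 genes in this comparison, and the groups lay far apart. DUSP8 (ENSG00000184545, chromosome 11, 1554044 to 1571920), which acts on JNK and p38, read 5.17, 3.61 and 3.86 FPKM in control and 11.9, 12.7 and 11.0 in PA. It rose 2.82 times in mean FPKM (log2 change 1.32, SE 0.14, limma adjusted p = 0.000278), with no overlap.

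SPRY4 (ENSG00000187678, chromosome 5, 142310427 to 142326455) read 0.219, 0.164 and 0.210 FPKM in control and 0.921, 0.781 and 0.767 in PA. The ratio of its means was 4.16 (log2 change 0.61, SE 0.10, limma adjusted p = 0.00331). SPRY2 (ENSG00000136158, chromosome 13, 80335976 to 80340951) read 4.60, 4.02 and 3.46 FPKM in control and 5.69, 5.60 and 5.63 in PA. Its rise was small (log2 change 0.41, SE 0.12, limma adjusted p = 0.0326). SPRY2 lost its call in 9 of 22 alternative settings, among them library totals set equal (0.18, adjusted p = 0.456) and the fits without control replicate 2, control replicate 3, PA replicate 1, PA replicate 2 or PA replicate 3 (adjusted p = 0.101, 0.122, 0.0849, 0.0919 and 0.0716). The other 5 rises held in each alternative in which the gene was tested.

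Of the genes that did not pass, DUSP6 (ENSG00000139318, chromosome 12, 89347232 to 89353271), the cytoplasmic phosphatase specific for ERK, read 0.200, 0.171 and 0.350 FPKM in control and 0.530, 0.781 and 0.670 in PA. Its libraries did not overlap and the ratio of means was 2.75 (log2 change 0.42, SE 0.15, limma adjusted p = 0.0582). It passed in 6 of 21 settings, including a pseudocount of 0.1 (1.18, adjusted p = 0.0183) and without PA+OA replicate 1 (adjusted p = 0.0123). DUSP6 shares exon sequence with AC024909.2 on the opposite strand, which reached at most 0.0223 FPKM; no other member overlaps an exon of another gene.

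DUSP16 (ENSG00000111266, chromosome 12, 12474210 to 12562383), a phosphatase of JNK and p38, was the 1 member whose PA libraries all lay below the controls: 24.9, 28.8 and 29.6 FPKM in control and 21.7, 17.6 and 21.0 in PA (log2 change -0.45, SE 0.18, limma adjusted p = 0.0728). Among all tested genes, 29.3% had all PA libraries below the controls. DUSP16 passed as lower without PA+OA replicate 1 (adjusted p = 0.0161) and with library totals set equal (-0.71, adjusted p = 0.0431). With totals set equal 5 of the 10 genes rose and 1 fell, and the median of all genes was -0.18. DUSP10 (ENSG00000143507, chromosome 1, 221701424 to 221742176), another JNK and p38 phosphatase, read 1.005, 0.757 and 0.515 FPKM in control and 0.595, 1.24 and 1.19 in PA, and the groups overlapped (log2 change 0.18, SE 0.16, adjusted p = 0.381). SPRED1 (ENSG00000166068, chromosome 15, 38252326 to 38357249), which brings neurofibromin to RAS, read 2.49, 2.89 and 3.09 FPKM in control and 3.04, 2.53 and 2.18 in PA (log2 change -0.10, SE 0.25, adjusted p = 0.773). With the GC and length trend removed from each library its sign turned (0.33, adjusted p = 0.179).

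**Figure D2:**
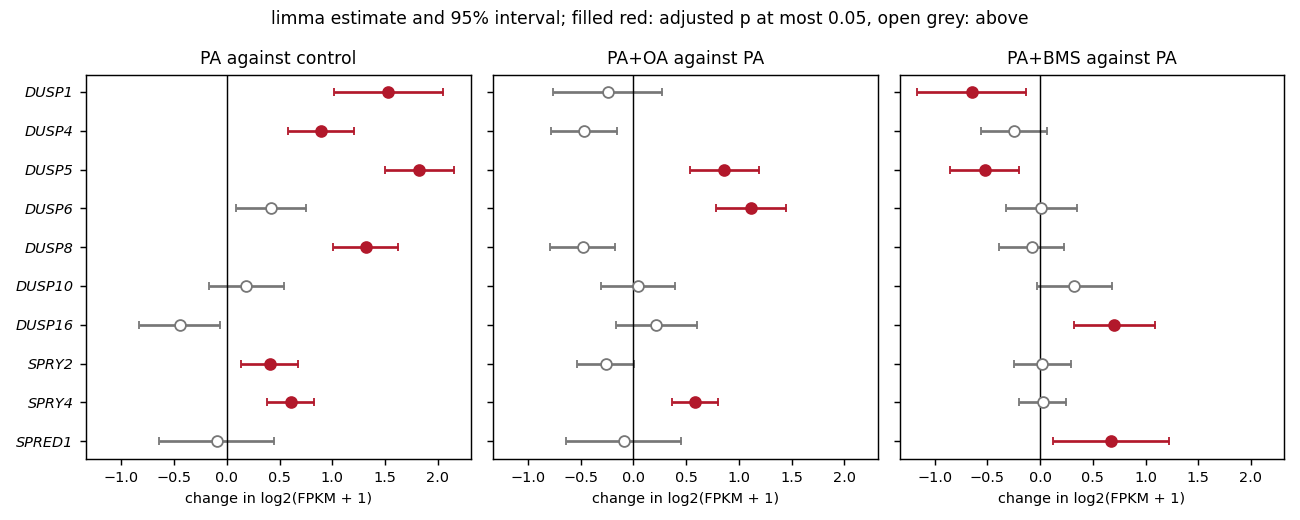
Log2 change of each gene on the log2(FPKM + 1) scale in the 3 main comparisons, with 95% confidence intervals from limma; filled points passed an adjusted p of 0.05. DUSP5 and SPRY4 lie to the right of 0 both for PA against control and for PA+OA against PA, whereas DUSP8 lies to the right in the first (1.32) and to the left in the second (-0.48).

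Adding oleate to palmitate raised 3 of the 10 genes above palmitate alone, and 0 fell. They were DUSP5, DUSP6 and SPRY4. DUSP7 and DUSP9, of the same ERK-directed subgroup as DUSP6, were at 0.03 and -0.14 on the log2 scale and did not pass (limma adjusted p = 0.929 and 0.823). Over the 8 genes that did not need the PA+OA libraries to pass the filter, 1 rose and 0 fell. Among all genes 7.91% were called, 4.01% as higher and 3.91% as lower. Without overlap between PA+OA and PA were 24.9% of all genes, 13.3% higher and 11.6% lower, and 3 members higher and 4 lower. The median log2 change was -0.025 over the 10 genes and -0.17 over the 8. At an unadjusted p under 0.05, 3 rose and 2 fell, and by voom 3 rose and 0 fell. The PA+OA and PA groups differ in total fatty acid as well as in oleate, and these cannot be told apart. The summed endothelial markers, mostly CDH5, were 0.266 to 0.429 FPKM in PA+OA and 1.03 to 1.31 in PA. Their part in the members' values was not tested.

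DUSP5 read 31.5, 33.2 and 34.5 FPKM in PA+OA, each above every PA library (15.6 to 19.5 FPKM). Its log2 change was 0.86 (SE 0.15, limma adjusted p = 0.00430), and the ratio of means was 1.85. DUSP6 read 1.78, 3.08 and 3.06 FPKM in PA+OA, against at most 0.781 in PA. The ratio of means was 4.00 (log2 change 1.11, SE 0.15, limma adjusted p = 0.00125). SPRY4 read 1.79, 1.64 and 1.77 FPKM, against 0.767 to 0.921 in PA, a ratio of 2.10 (log2 change 0.58, SE 0.10, limma adjusted p = 0.00430). All 3 rises held in each alternative in which the gene was tested, but DUSP6 and SPRY4 were in the test only because they were high in PA+OA. In that group DUSP6 was lowest in PA+OA replicate 1, the library that stood apart, and higher in the other 2.

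Of the other phosphatases, DUSP4 read 15.7, 16.0 and 16.3 FPKM in PA+OA, all below the PA libraries (log2 change -0.47, SE 0.14, limma adjusted p = 0.0690). DUSP8 read 10.2, 7.38 and 7.37 FPKM, also all below PA (log2 change -0.48, SE 0.14, limma adjusted p = 0.0582), with PA+OA replicate 1 nearest to PA. DUSP8 passed as lower in 7 of 22 settings, among them library totals set equal, where 3 genes rose and 1 fell, the trend with GC and length removed (-0.43, adjusted p = 0.00333), without control replicate 1 (adjusted p = 0.0436) and without PA+OA replicate 1 (-0.62, adjusted p = 0.00769). DUSP4 passed without control replicate 1 (adjusted p = 0.0495) or without PA+BMS replicate 3 (adjusted p = 0.0483), libraries outside the comparison that enter the shared spread. Without control replicate 1, 3 genes rose and 2 fell.

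DUSP1 read 298, 293 and 270 FPKM in PA+OA, below the 3 PA libraries, but the difference did not pass (log2 change -0.25, adjusted p = 0.651). SPRY2 read 3.63, 5.04 and 5.07 FPKM, below PA (log2 change -0.26, adjusted p = 0.256). DUSP10 read 0.883, 1.41 and 0.887 FPKM, DUSP16 17.4, 27.6 and 26.6, and SPRED1 1.17, 2.77 and 3.55. These 3 overlapped with PA (log2 changes 0.04, 0.22 and -0.09). DUSP16 passed as higher (0.42, adjusted p = 0.0203) when PA+BMS replicate 3 and PA+OA replicate 1 were both left out. SPRED1 and DUSP16 were lowest of all 12 libraries in PA+OA replicate 1, and without that library the change of SPRED1 was 0.22. SPRED1 has the lowest GC content of the 10 transcripts, 38.9%, against 64.6% for DUSP8.

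BMS-309403 before and with palmitate went with lower DUSP1 and DUSP5 and with higher DUSP16 and SPRED1 than palmitate alone: 2 of the 10 genes rose and 2 fell (2 and 2 over the 8). The other 6, DUSP4, DUSP6, DUSP8, DUSP10, SPRY2 and SPRY4, did not pass. Among all genes 54.5% were called, 25.2% as higher and 29.4% as lower, so the share of members called was below that of all genes. Without overlap between PA+BMS and PA were 69.5% of all genes, 32.8% higher and 36.7% lower, and 3 members higher and 2 lower. Without PA replicate 1 or PA replicate 3, 2 members were called, and without PA replicate 2 or PA+BMS replicate 3, 1 was. The median log2 change was 0.016 over the 10 genes and -0.044 over all genes. BMS-309403 was present for 24 h and palmitate for 4 h, so the agent and its longer exposure cannot be told apart.

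DUSP16 read 28.9, 32.1 and 39.7 FPKM in PA+BMS, each above every PA library (17.6 to 21.7 FPKM). Its log2 change was 0.70 (SE 0.18, limma adjusted p = 0.00925), and it was called in all 22 alternatives. SPRED1 read 3.71, 3.97 and 6.81 FPKM, above PA (2.18 to 3.04), with replicate 3 the highest (log2 change 0.67, SE 0.25, limma adjusted p = 0.0401). Its call was lost in 9 of 21 settings: the change was 0.44 without PA+BMS replicate 3 (adjusted p = 0.168) and 0.14 after removal of the GC and length trend (adjusted p = 0.546). It was also lost without control replicate 2, control replicate 3, PA replicate 1, PA replicate 2 or PA replicate 3 (adjusted p = 0.0516, 0.0513, 0.0541, 0.0915 and 0.110).

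DUSP1 read 228, 230 and 193 FPKM in PA+BMS, below PA (315 to 364) and at or above the highest control (192). Its log2 change was -0.65 (SE 0.24, limma adjusted p = 0.0369). The call was lost in 11 of 22 settings, including the omission of any 1 PA or PA+BMS library (adjusted p = 0.0557 to 0.111). Removal of the GC and length trend left a change of -0.18 (adjusted p = 0.506). DUSP5 read 12.8, 12.6 and 10.7 FPKM, also below PA (log2 change -0.53, SE 0.15, limma adjusted p = 0.0142). Its call was lost without PA replicate 2 (adjusted p = 0.0575) and without PA+BMS replicate 3 (adjusted p = 0.0547), and the change was -0.04 with the GC and length trend removed (adjusted p = 0.848). With library totals set equal, where the median of all genes was 0.24, DUSP1 and DUSP5 changed by -0.27 and -0.17 and 3 genes (DUSP10, DUSP16 and SPRED1) rose and 0 fell; by voom 3 also rose and 0 fell.

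DUSP8 read 11.96, 10.8 and 10.8 FPKM in PA+BMS and overlapped with PA (log2 change -0.08, adjusted p = 0.638). With the GC and length trend removed it was higher instead (0.43, adjusted p = 0.00622), and it was also positive with library totals set equal (0.27) and by voom (0.18). DUSP4 read 16.8, 18.0 and 21.9 FPKM (log2 change -0.25, adjusted p = 0.151), DUSP6 0.702, 0.722 and 0.587, SPRY2 5.46, 6.13 and 5.62, and SPRY4 0.835, 0.858 and 0.860. DUSP6, SPRY2 and SPRY4 overlapped with PA, with log2 changes of 0.01, 0.02 and 0.02. DUSP10 read 1.40, 1.48 and 1.57 FPKM, above all PA libraries (log2 change 0.32, adjusted p = 0.106). Marker genes listed for other cell types differed between PA+BMS and PA, and whether such cells were present was not tested. The summed bile duct markers were 140 to 185 FPKM in PA+BMS and 571 to 669 in PA, nearly all of it KRT7. The macrophage or leukocyte list summed to 0.539 to 0.607 FPKM against 1.63 to 2.10. Nearly all of that was CSF1R, as CD68 and PTPRC reached at most 0.110 and 0.0115 FPKM. The stellate or fibroblast list, mostly COL1A1, summed to 11.3 to 12.2 against 15.5 to 16.8. The endothelial list summed to 0.334 to 0.437 FPKM in PA+BMS, 0.266 to 0.429 in PA+OA, 1.03 to 1.31 in PA and 1.34 to 1.79 in control. Most of it was CDH5, as PECAM1 reached at most 0.147 FPKM. The part of these marker genes in the members' values was not tested. In such bulk libraries fewer cells of a type and less RNA per cell cannot be told apart.

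**Figure D3:**
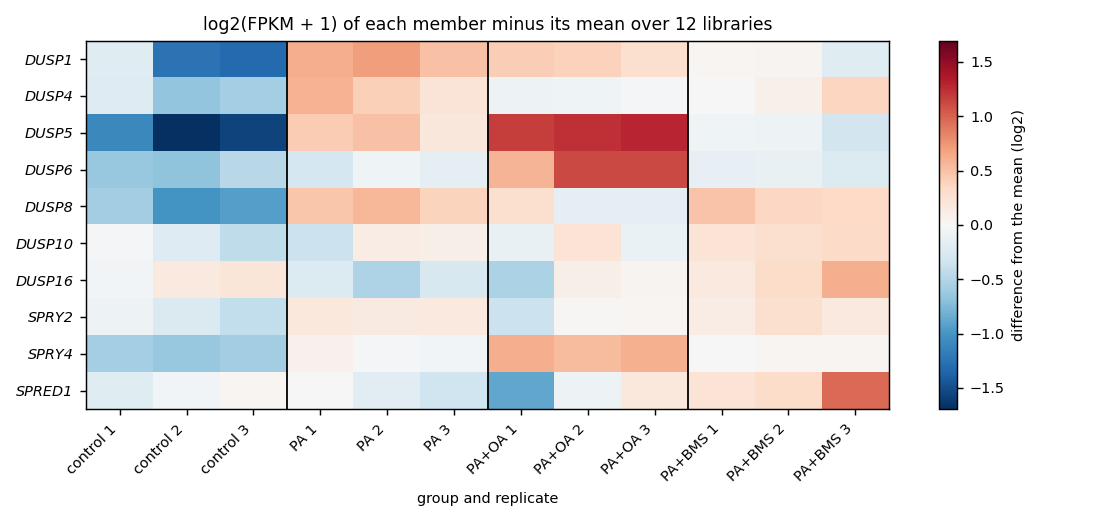
Centred log2(FPKM + 1) of the 10 genes (rows) in the 12 libraries (columns, by group); colour gives the difference from the gene's mean over all libraries. DUSP5, DUSP6 and SPRY4 are highest in the 3 PA+OA columns, and DUSP16 and SPRED1 are highest in PA+BMS replicate 3.

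Across the 4 groups the genes took different orders. A lack of overlap between groups was common, from 24.9% of all tested genes (PA+OA against PA) to 69.5% (PA+BMS against PA). DUSP1 was highest in PA, then PA+OA, PA+BMS and control, and no neighbours in this order overlapped. DUSP4 and DUSP8 were highest in PA, then PA+BMS, PA+OA and control, and overlapped between PA and PA+BMS. DUSP5 was highest in PA+OA, then PA, PA+BMS and control, with no overlap between neighbours. DUSP6 and SPRY4 were highest in PA+OA and lowest in control, with PA and PA+BMS overlapping between them. SPRY2 was highest in PA+BMS, where it overlapped with PA, and its PA+OA and control libraries overlapped. For DUSP10, highest in PA+BMS and lowest in control, and for DUSP16, highest in PA+BMS and lowest in PA, all neighbours overlapped. SPRED1 was highest in PA+BMS, and its other 3 groups overlapped.

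Against control, PA+OA had 6 of the 10 genes higher and 0 lower (4 and 0 over the 8; 6 and 0 at an unadjusted p under 0.05, 5 and 0 by voom), and 36.3% of all genes were called, 17.5% as higher and 18.8% as lower. The log2 changes were 2.68 for DUSP5 (limma adjusted p = 4.32e-07), 1.53 for DUSP6 (3.36e-05), 1.29 for DUSP1 (0.00189), 1.19 for SPRY4 (1.15e-05), 0.83 for DUSP8 (0.00112) and 0.42 for DUSP4 (0.0381). In mean FPKM, DUSP6 was 11.0 times and SPRY4 8.76 times its control level. Both entered the test only through high PA+OA libraries, so their being higher there than in control followed from the filter. The DUSP4 call was lost in 11 of 22 settings, among them the omission of control replicate 2 or 3, PA replicate 2, any PA+OA library or PA+BMS replicate 2 (adjusted p = 0.0511 to 0.151). PA+BMS also had 6 genes higher than control and 0 lower (5 and 0 over the 8; 9 and 0 unadjusted, 6 and 0 by voom), against 11.0% of all genes called, 4.77% as higher and 6.25% as lower. These were DUSP5 (1.30, limma adjusted p = 0.000309), DUSP8 (1.24, 0.000292), DUSP1 (0.88, 0.0338), DUSP4 (0.64, 0.0151), SPRY4 (0.63, 0.00232) and SPRY2 (0.43, 0.0455). Without control replicate 2, control replicate 3 or PA+BMS replicate 3 the count was 3, as the calls of DUSP1, DUSP4 and SPRY2 were lost (adjusted p = 0.0502 to 0.169). When PA replicate 1 or 2 or PA+BMS replicate 1 or 2 was left out, those of DUSP1 and SPRY2 were lost, and without PA replicate 3 or PA+OA replicate 2 that of SPRY2. The comparisons with control share the control libraries, and those with PA share the PA libraries.

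PA+BMS set against PA+OA had 3 of the 10 genes lower and 3 higher (1 lower and 3 higher over the 8), and 49.6% of all genes were called, 26.4% as lower and 23.1% as higher. DUSP5 fell by 1.39 on the log2 scale (limma adjusted p = 0.000140), DUSP6 by 1.10 (0.000664) and SPRY4 by 0.56 (0.00248). The DUSP5 fall held in all 22 alternatives; DUSP6 and SPRY4 entered the test only through high PA+OA libraries, so their being lower in PA+BMS followed from the filter. SPRED1 (0.76, limma adjusted p = 0.0268), DUSP16 (0.49, 0.0375) and DUSP8 (0.40, 0.0351) were higher, and these calls were lost in 6 to 7 settings each. After removal of the GC and length trend SPRED1 was at 0.29 (adjusted p = 0.180) and DUSP16 at 0.31 (adjusted p = 0.0683), and when PA+BMS replicate 3 and PA+OA replicate 1 were both left out they were at 0.22 and 0.16 (adjusted p = 0.254 and 0.344). Without PA+BMS replicate 3, 0 were higher and 3 lower. Without PA+BMS replicate 2 or PA+OA replicate 1, 1 was higher, and without PA+OA replicate 2, PA+OA replicate 3 or PA+BMS replicate 1, 2 were. With library totals set equal 6 were higher and 3 lower.

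Other genes of the pathway were read from 8 lists. Their counts stand beside shares over all genes of 27.6% called in PA against control and 7.91% in PA+OA against PA. In PA+BMS against PA 54.5% of all genes were called, 25.2% as higher and 29.4% as lower. Of 10 other ERK-responsive genes, 9 were tested, and 7 rose and 1 fell with palmitate (median log2 change 1.08). With oleate added 3 rose and 0 fell (median 0.26; 4 and 0 both unadjusted and by voom), and in PA+BMS against PA 0 rose and 5 fell (median -0.42; 0 and 6 unadjusted, 0 and 3 by voom, 1 and 3 with totals set equal; 3 fell without PA replicate 2). EGR1, an immediate early transcription factor, rose from 4.16 ± 1.68 FPKM in control to 24.6 ± 1.41 in PA and 52.9 ± 7.57 in PA+OA. PHLDA1, a nuclear and cytoplasmic protein induced by growth factors, went from 2.36 ± 0.463 to 10.7 ± 1.32 and 20.9 ± 2.37, and ETV5, an ETS factor, from 4.88 ± 0.461 to 12.1 ± 0.466 and 19.7 ± 2.07 (SD, n = 3). All 6 of these steps passed (limma adjusted p of at most 0.00551). Genes named here and from the lists below were picked for the smallest p in the comparisons above. Their passing therefore partly follows from that choice. In PA+BMS against PA, PHLDA1 fell by 0.39 on the log2 scale (limma adjusted p = 0.0274), and EGR1 (24.6 ± 1.13 FPKM in PA+BMS) and ETV5 (13.1 ± 0.837) did not pass.

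Of 13 growth factor ligands, 7 were tested, and 3 rose and 1 fell with palmitate. With oleate added 2 rose and 0 fell (2 and 0 unadjusted and by voom). AREG, an EGF receptor ligand, rose from 1.35 ± 0.431 to 5.08 ± 0.967 FPKM with palmitate (log2 change 1.37, limma adjusted p = 0.000383). HBEGF, another such ligand, rose from 2.79 ± 0.531 to 4.06 ± 0.336 with palmitate (adjusted p = 0.0260) and to 7.41 ± 0.742 in PA+OA (adjusted p = 0.00333). FGF21, a secreted metabolic hormone, rose from 0.557 ± 0.735 to 3.14 ± 0.305 and to 13.5 ± 4.20 FPKM (limma adjusted p = 0.00452 and 0.00222). In PA+BMS against PA, AREG was the 1 ligand that fell (log2 change -0.71, adjusted p = 0.00624) and 0 rose (1 at an unadjusted p under 0.05, 2 by voom; with totals set equal 2 rose and 0 fell). Without PA replicate 1 or PA+OA replicate 1, 1 and 3 ligands rose there.

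Among the remaining phosphatase, Sprouty and SPRED genes, 4 of 7 were tested, and 3 fell in PA+BMS against PA, where 0 rose (0 unadjusted, 1 by voom). DUSP2, a nuclear phosphatase, went from 16.7 ± 1.87 FPKM in PA to 7.97 ± 1.78 (log2 change -0.99, limma adjusted p = 0.00367). DUSP7, cytoplasmic and ERK-directed, went from 8.81 ± 0.755 to 5.31 ± 0.523 (-0.64, adjusted p = 0.00365), and DUSP9, of the same subgroup, from 12.05 ± 2.49 to 4.98 ± 1.40 (-1.13, adjusted p = 0.00556). With the GC and length trend removed 1 of this list fell, and with totals set equal 1 rose and 2 fell. With oleate added 0 of the 4 rose or fell (0 and 0 unadjusted and by voom; median log2 change -0.059). With palmitate DUSP2 rose (0.55, adjusted p = 0.0391), a call lost with the trend removed, with totals set equal, by voom, and without any 1 of the control or PA libraries or PA+BMS replicate 2. Without PA+OA replicate 1, 2 genes of this list rose.

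The other feedback inhibitors, 9 of 10 tested, had 2 that rose and 0 that fell with palmitate (3 and 1 unadjusted, 1 and 1 by voom or with totals set equal). ERRFI1, a direct inhibitor of the EGF receptor, went from 4.90 ± 1.36 to 11.5 ± 0.486 FPKM with palmitate (limma adjusted p = 0.00259) and to 27.8 ± 6.35 with oleate added (adjusted p = 0.00217). LRIG1, which promotes degradation of ERBB receptors, went from 4.27 ± 0.243 to 6.11 ± 0.303 (adjusted p = 0.0189) and back to 3.67 ± 0.668 with oleate (log2 change -0.62, adjusted p = 0.00543). In PA+BMS against PA 6 rose and 1 fell, the latter being PEBP1, a RAF inhibitor (-0.56, adjusted p = 0.0109). These counts were 3 and 1 without PA replicate 1 or PA replicate 3, 0 and 1 without PA replicate 2, 1 and 1 without PA+BMS replicate 3, and 0 and 0 after removal of the GC and length trend. With palmitate they were 1 and 0 without control replicate 2, control replicate 3 or PA replicate 2, 4 and 1 without PA+OA replicate 1, and 3 and 1 without PA+BMS replicate 3.

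**Figure D4:**
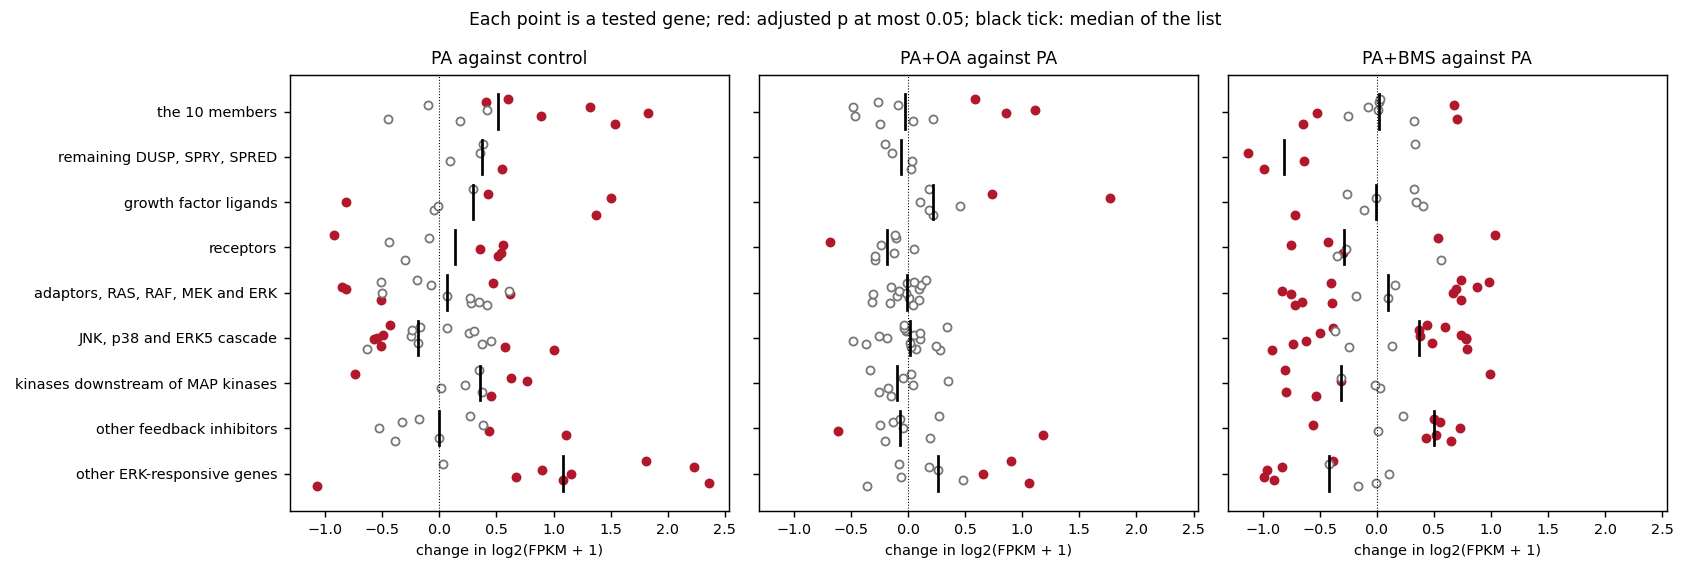
Log2 change of each tested gene (points) of the 10 members and the 8 lists in the 3 main comparisons; red points passed a limma adjusted p of 0.05 and the black tick is the median. The other ERK-responsive genes have 7 red points right of 0 in PA against control and 5 left of 0 in PA+BMS against PA. Over all tested genes 12.8% were called higher in the former, and 54.5% were called in the latter, 29.4% as lower.

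In the core cascades, of 15 tested adaptor, RAS, RAF, MEK and ERK genes, 2 rose and 3 fell with palmitate, and NRAS fell from 18.4 ± 2.34 to 9.94 ± 0.50 FPKM (log2 change -0.82, limma adjusted p = 0.00269). Of 17 genes of the JNK, p38 and ERK5 cascade, 2 rose and 5 fell. MAP2K3, a kinase that activates p38, rose from 41.0 ± 4.65 to 83.2 ± 8.52 FPKM (adjusted p = 0.00308), and MAP3K7 fell from 3.32 ± 0.533 to 2.05 ± 0.299 (adjusted p = 0.0267). Of 8 receptors 4 rose and 1 fell, with FGFR1 at 1.62 ± 0.00574 and 2.81 ± 0.0309 FPKM (adjusted p = 0.00346). Of 8 downstream kinases 3 rose and 1 fell, with MKNK2 at 8.68 ± 0.446 and 15.5 ± 1.40 FPKM (adjusted p = 0.00219). Without any 1 of control replicates 2 and 3 and PA replicates 1 and 2, the rises and falls were 0 and 1, 2 and 0, 1 and 0, and 1 and 0 in these 4 lists. Without PA replicate 3 the first 3 lists had 0 and 2, 2 and 1, and 2 and 0; without PA+OA replicate 1 the first 2 had 6 and 4, and 4 and 7; without PA+BMS replicate 2 the receptors had 2 and 1. With library totals set equal the 4 lists had 1 and 4, 1 and 7, 1 and 2, and 2 and 1. After removal of the GC and length trend they had 0 and 2, 2 and 1, 1 and 2, and 1 and 0. By voom the receptors had 2 and 2.

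With oleate added, limma called 0 genes in the 2 cascades and among the downstream kinases (at an unadjusted p under 0.05: 0 in the first, 1 higher and 1 lower in the second, 1 higher in the third; by voom 1 lower, in the second). Without PA+OA replicate 1, 2 fell in the first, 1 rose and 2 fell in the second, and 2 fell in the third. Of the receptors IGF1R fell (log2 change -0.69, limma adjusted p = 0.0174), a call lost without PA replicate 1 or PA replicate 3; without PA+OA replicate 1, 2 receptors fell.

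In PA+BMS against PA, where 54.5% of all genes were called, the first cascade had 6 rises and 6 falls and the second 9 and 5. NRAS was higher (log2 change 0.70, limma adjusted p = 0.00424), and so was MAP3K7 (0.74, 0.00448), while ARAF (-0.71, 0.00600) and MAP2K3 (-0.92, 0.00376) were lower. With the GC and length trend removed these counts were 4 and 0, and 1 and 2, with totals set equal 7 and 3, and 9 and 2, and by voom 8 and 3, and 9 and 3. In the second cascade they were 4 and 3 without PA replicate 2 and 5 and 3 without PA+BMS replicate 3. Of the downstream kinases 1 rose and 4 fell, with RPS6KA3 at 0.99 (adjusted p = 0.00914) and MAPKAPK2 at -0.54 (adjusted p = 0.00827). Of the receptors 2 rose and 3 fell; the counts were 1 and 2 without PA replicate 1 or PA replicate 3, 1 and 1 without PA replicate 2, 3 and 5 without PA+OA replicate 1, and 2 and 1 without PA+BMS replicate 2. The receptor counts were 3 and 1 with totals set equal or by voom, and 3 and 2 with the trend removed. The downstream kinases then had 1 and 2 (totals), 1 and 3 (voom) and 1 and 1 (trend removed).

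For each member the gene with the most similar profile was found as the smallest root mean square difference of centred log2(FPKM + 1) over the 12 libraries, among 11846 other tested genes. For DUSP5 this was PHLDA1 (0.124, where the own root mean square of DUSP5 was 0.986), and for DUSP1 it was PIM1, a kinase gene (0.210 against 0.641). The nearest gene was CXCL3, a chemokine, for DUSP6 (0.151 against 0.587), GPT2, an aminotransferase, for DUSP8 (0.157 against 0.541), and KIAA0513 for SPRY4 (0.111 against 0.422). For the genes that moved less it was MAST2 for DUSP4 (0.152 against 0.358), CEP19 for DUSP10 (0.134 against 0.244), DDX42 for DUSP16 (0.0663 against 0.324), TMEM268 for SPRY2 (0.0585 against 0.215) and SLC30A1 for SPRED1 (0.107 against 0.417). Among the members themselves the smallest distances were those of DUSP10 with SPRY2 (0.195) and DUSP16 with SPRED1 (0.218). The distance is not scaled to a gene's variation, so genes that moved little come out close. For DUSP10 and SPRY2 it was near their own root mean squares (0.244 and 0.215). DUSP6 with SPRY4 was at 0.274, against 0.587 and 0.422. These distances describe 12 libraries that share their groups and depth.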

How the data were processed

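Values in the deposited table are FPKM per gene, made by the authors. Tools named in the submitters' processing notes are featureCounts (1.5.0-p3), HISAT2 (2.0.5) and CASAVA, with no role stated. Per the labels' protocols, libraries were poly(A)-selected and read as 150 bp pairs. Genome build, annotation, strand setting and the step from reads to FPKM: each is not given in the sources used here. All 58735 gene identifiers, with start and end, equalled GENCODE 29 on GRCh38, whose coordinates are given. FPKM multiplied by gene length gave whole reads for 100% of values (tolerance 0.001), 16059128 to 19971190 per library. The library size implied by FPKM was 0.827 to 1.14 times that sum, and this ratio differed between groups. It was 1.03 to 1.10 in control, 0.888 to 0.976 in PA, 0.827 to 1.03 in PA+OA and 1.09 to 1.14 in PA+BMS. FPKM is not a count, so limma 3.58.1 in R 4.3.3 was run on log2(FPKM + 1) for the 11856 genes with at least 1 FPKM in at least 3 libraries. The fit used all 12 libraries, one coefficient per group and eBayes with a trend (8 residual degrees of freedom). Tests were two-sided, with Benjamini-Hochberg adjustment over all genes within each of 6 comparisons at 0.05. Chi-square per gene between replicates was 3.94 to 87.8 over 12 pairs, beyond sampling noise. Members and lists were chosen with earlier results of these data known. All members are named; of each list, at most 3 genes with the smallest p, of which 1 is not reported here. Alternatives were 22 other settings: a pseudocount of 0.1, no filter, a 5 FPKM filter, scaling by median of ratios, totals set equal, removal of each library's GC and length trend (splines, 5 degrees of freedom), voom on recovered reads, only the 2 groups compared, a replicate block, and leaving out libraries. Plots used Python 3.11.15 with matplotlib 3.10.9.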

Additional observations from a re-analysis of the deposited data

How the results depend on the processing

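Of the 31 calls among 60 pairs of gene and comparison, 20 held in every alternative in which the gene was tested. None changed sign, and of 672 such fits 581 kept the call and 91 lost it. The calls that held include those of DUSP6 and SPRY4 in every comparison with PA+OA. Both genes entered the main test only through high PA+OA libraries, so these directions followed from the filter. In PA+BMS against PA, 4 genes were called, and 2 with no filter on low values or with the GC and length trend removed. In PA+BMS against PA+OA, 6 were called, and 3 with no filter, with a filter at 5 FPKM or with only the 2 groups compared. In PA+OA against PA, 3 were called, and 6 when PA+BMS replicate 3 and PA+OA replicate 1 were both left out. When each library was left out in turn, the number called in PA against control was 5 to 8, with 3 to 5 in PA+OA against PA, 1 to 4 in PA+BMS against PA, 5 to 6 in PA+OA against control, 3 to 9 in PA+BMS against control and 3 to 7 in PA+BMS against PA+OA. It was 1 in PA+BMS against PA without PA replicate 2 or PA+BMS replicate 3, and 2 without PA replicate 1 or 3. With replicate number as a block, 8 genes were called in PA against control, as DUSP6 (higher) and DUSP16 (lower) were added. The count was 4 each when PA+BMS or PA+OA was set against PA, and 6 in each of the other 3 comparisons. Correlations of same-numbered libraries ranged from -0.28 to 0.56 (median 0.11), and those of different-numbered libraries from -0.54 to 0.40 (median -0.092). Of the 12 libraries, 9 correlated best with their own number. The main test did not take the numbers as pairs, and whether they mark pairs is not settled by these values. Signs that turned belonged to log2 changes not called in the main test. With totals set equal they were DUSP4 (0.11) and DUSP8 (0.27) in PA+BMS against PA and SPRY2 (-0.041) in PA+OA against control. With the GC and length trend removed they were SPRED1 in PA against control (0.33) and PA+OA against control (0.18), DUSP10 in PA+OA against PA (-0.031), DUSP6 (-0.13) and DUSP8 (0.43) in PA+BMS against PA, and DUSP1 in PA+BMS against PA+OA (0.11). By voom they were DUSP4 (0.0082) and DUSP8 (0.18) in PA+BMS against PA. Without PA+OA replicate 1, alone or with PA+BMS replicate 3, SPRED1 was at 0.22 in PA+OA against PA and at 0.12 in PA+OA against control; over single libraries left out it ranged from -0.32 to 0.22 and from -0.41 to 0.12. DUSP10 in PA+OA against PA ranged from -0.11 (without PA replicate 1; -0.074 without PA+OA replicate 2) to 0.13. For PA+BMS against PA, DUSP6 ranged from -0.047 (without PA replicate 1; -0.0031 and -0.012 without PA+BMS replicates 1 and 2) to 0.063, and SPRY2 from -0.021 (without PA+BMS replicate 2) to 0.050. The cause of these changes was not tested. Over all genes the number called ranged from 795 to 6723 in PA against control (3272 in the main test), 464 to 3016 in PA+OA against PA (938), 2756 to 7414 in PA+BMS against PA (6463), 2486 to 5242 in PA+OA against control (4307), 654 to 2330 in PA+BMS against control (1306) and 2066 to 6557 in PA+BMS against PA+OA (5878). Depth limits DUSP6, SPRY4 and DUSP10, which had 14 to 269, 19 to 220 and 25 to 98 reads per library.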
